A study of Mus musculus with 6 samples.

Results

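The genes described here are 38 components of autophagy, the route by which a cell wraps cytoplasm, organelles or protein aggregates in a membrane and hands them to the lysosome. They were chosen by name, as 8 role groups of the core machinery and its cargo receptors, with earlier results of these data known. Each was looked up by NCBI gene number among the 16871 genes of the series. All 38 were found, none was at 0 in any library, and their expected counts lay between 63 and 5301 per library. Each of them passed the filter on low counts and was tested. RNA was sequenced from macrophages that had been differentiated in culture from the bone marrow of mice. DKO cells were double knockouts, lacking the mitochondrial aldehyde dehydrogenase ALDH2 on top of another knockout (3 libraries). LKO cells carried that other knockout alone and served as the control (3 libraries). Every library came from C57BL/6 mice aged 8 weeks, after 7 days of culture and a treatment with oxLDL, the oxidised form of low-density lipoprotein, so the other knockout and the oxLDL were common to both groups. The labels do not give the design of either knockout allele, nor say that the libraries came from separate animals. The p-values therefore measure the spread between these libraries, which may be technical.

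Autophagy begins when the ULK1 kinase complex, held back by mTORC1 in fed cells, switches on the PI3KC3 lipid kinase at the site where the membrane will form. WIPI, ATG2 and ATG9 proteins then supply lipid, and ubiquitin-like enzymes attach LC3 and GABARAP proteins to the growing membrane. Cargo receptors such as p62 (Sqstm1) bind ubiquitinated cargo and LC3 at once, and SNAREs and tethers fuse the closed autophagosome with the lysosome. In lipid-loaded macrophages autophagy is known for delivering lipid droplets to lysosomes, and transcripts alone do not show how fast this flow runs.

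The windows below are RefSeq promoters of the 4 autophagy genes with the smallest p among those that passed the test described further on. Ulk1 and Ulk2 encode the paired kinases that start the process and both rose in DKO cells. Sqstm1 and Optn encode cargo receptors that went in opposite directions. Each window runs from 250 bases before to 50 bases after the annotated start, on the minus strand of GRCm38.p6, at chr5:110810032-110810331 for Ulk1, chr11:61855043-61855342 for Ulk2, chr11:50210771-50211070 for Sqstm1 and chr2:5064068-5064367 for Optn. These positions are of the reference table and not of the genome build used by the authors. Capitals mark a match to the core of the antioxidant response element.
Ulk1: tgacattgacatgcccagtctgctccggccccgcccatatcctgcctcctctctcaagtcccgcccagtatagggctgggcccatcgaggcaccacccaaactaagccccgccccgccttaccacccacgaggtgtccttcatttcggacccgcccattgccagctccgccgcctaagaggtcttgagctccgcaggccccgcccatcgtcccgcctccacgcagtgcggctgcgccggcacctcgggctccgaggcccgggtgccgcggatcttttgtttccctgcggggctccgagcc
Ulk2: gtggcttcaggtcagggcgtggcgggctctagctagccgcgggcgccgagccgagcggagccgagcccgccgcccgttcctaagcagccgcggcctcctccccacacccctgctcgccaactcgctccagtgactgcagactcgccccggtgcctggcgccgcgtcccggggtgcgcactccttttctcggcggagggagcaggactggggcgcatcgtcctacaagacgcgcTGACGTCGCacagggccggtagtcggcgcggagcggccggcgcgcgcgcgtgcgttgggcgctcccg
Sqstm1: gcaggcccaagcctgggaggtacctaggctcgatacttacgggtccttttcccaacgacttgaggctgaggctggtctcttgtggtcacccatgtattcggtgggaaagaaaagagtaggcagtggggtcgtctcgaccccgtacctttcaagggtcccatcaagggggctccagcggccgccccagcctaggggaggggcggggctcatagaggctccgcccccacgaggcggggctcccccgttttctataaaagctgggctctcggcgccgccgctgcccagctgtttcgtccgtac
Optn: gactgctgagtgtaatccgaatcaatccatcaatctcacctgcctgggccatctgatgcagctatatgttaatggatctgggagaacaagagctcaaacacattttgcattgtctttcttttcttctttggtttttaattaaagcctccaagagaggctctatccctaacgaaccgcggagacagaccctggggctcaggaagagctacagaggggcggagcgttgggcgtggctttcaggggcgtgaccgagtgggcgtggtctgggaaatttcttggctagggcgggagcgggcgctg

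Short motifs, 3 in all, were searched on both strands of such windows, and the match marked above is the only one in the windows shown. CACGTG is the E-box read by MITF, TFEB and TFE3, TGACNNNGC is the core of the element read by NRF2, and TGTTTAC is a forkhead site of FOXO factors. RefSeq windows were present for 31 of the 38 genes (34 windows). The core TGACNNNGC was found in 3 of the 34 windows, against 12.4% of all 32851 windows. These were of Ulk2, where it begins at position -17 from the start, Atg13 and Map1lc3b. The E-box was found in 4 of the 34, against 7.15% of all windows. Those were of Atg14, Atg3, Atg5 and Atg7, none of which passed the test. No window of the 34 held the forkhead motif, which 3.65% of all windows hold. The bases G and C made up a median of 59.7% of the 34 windows and 52.7% of all windows. A match is a stretch of letters and not a bound site.

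The libraries held between 10760625 and 10987584 expected counts. Aldh2 stood at 7.00, 7.06 and 7.34 FPKM in DKO and at 248.6, 239 and 236 FPKM in LKO, where FPKM is the expected count scaled to transcript length and library size (exact two-sided permutation test p = 0.1, which is the lowest p possible with 3 libraries a group). Among the macrophage markers Csf1r, Adgre1, Cd68, Mertk, Fcgr1, Itgam, Lyz2, Mrc1 and Cd14, 5 of 9 were higher in DKO and 1, Adgre1, was lower. Their summed level was between 10755 and 11973 FPKM in DKO and between 9491 and 10226 in LKO. That gap in the sum lay in Lyz2: without it the other 8 summed to between 3752 and 3872 FPKM in DKO and between 3760 and 3875 in LKO, an overlap. The overlapping sums hold opposite changes and do not show that these 8 were alike in the groups. Csf1r (484 FPKM in DKO, 365 in LKO), Mrc1 (157 in DKO, 105 in LKO), Fcgr1 and Mertk were higher in DKO. Adgre1, the highest of the 8, was lower (1755 FPKM in DKO, 1938 in LKO), and Cd68, Itgam and Cd14 did not pass. Neutrophil markers were lower in DKO (8 of 12 tested, summed level 380 to 422 FPKM in DKO and 587 to 648 in LKO), as were lymphocyte markers (4 of 6 tested, 80.8 to 88.1 FPKM in DKO and 103 to 115 in LKO). Stromal markers were higher (6 of 9 tested, 68.5 to 93.2 FPKM in DKO and 41.5 to 47.8 in LKO). No marker of these lists was absent from every library. These differences run beside each result that follows, and their part in it was not tested. In such bulk libraries, fewer cells of a type and less RNA per cell cannot be told apart.

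The core autophagy genes were all transcribed in these macrophages, at levels that spanned 119-fold in DKO and 130-fold in LKO between the highest and the lowest member. Gabarap, one of the ubiquitin-like proteins that coat the autophagosome, was the highest, at 430, 402 and 412 FPKM in DKO and 420, 437 and 446 FPKM in LKO. Its groups overlapped. Sqstm1 came next, then Map1lc3b, which encodes LC3B, at 85.9 ± 3.86 FPKM in DKO and 85.6 ± 4.78 in LKO, then Gabarapl2. These 4 were the only members above 50 FPKM, and the libraries of each did not overlap with those of the next lower one in either group. Below them the order was less sharp. Of the 37 pairs of neighbours in the whole order, 25 overlapped in DKO and 25 in LKO, all of them below these 4. Atg2b, a lipid transfer protein, was the lowest at 3.48 ± 0.167 FPKM in DKO and 3.35 ± 0.171 in LKO. The median member stood at 13.4 FPKM in DKO and 12.8 FPKM in LKO, above 72.3% and 71.4% of all listed genes.

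**Figure D1:**
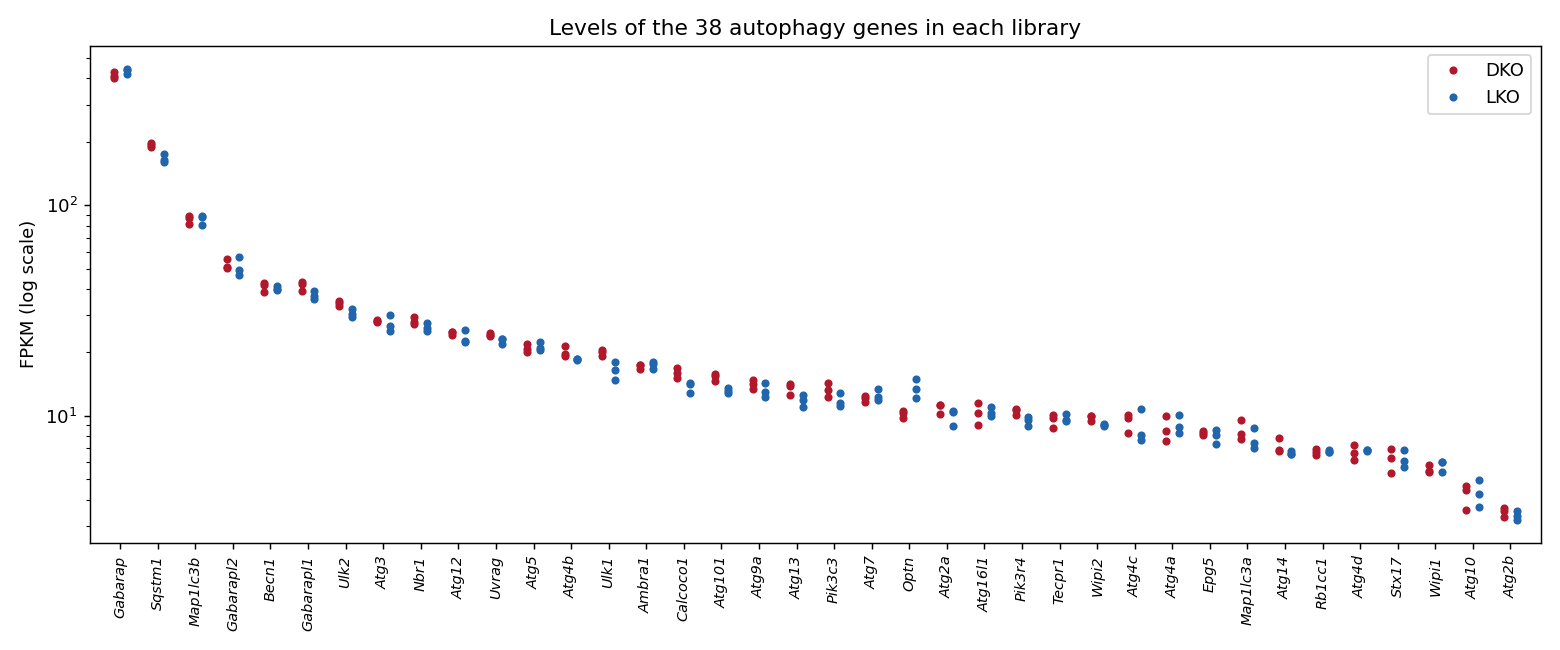
FPKM of each of the 38 autophagy genes on a log axis, ordered by mean, with 1 point per library (DKO left of LKO within each gene). Gabarap, Sqstm1, Map1lc3b and Gabarapl2 lie above 50 FPKM on average, and for most genes the points of the 2 groups overlap.

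Of the 38 genes, 5 rose in DKO, 1 fell and 32 did not pass an adjusted p of 0.05 in edgeR's quasi-likelihood test on expected counts. That is 15.8% of the members, against 14.3% of all 11809 genes tested, so the share called was close to the background. By direction, 13.2% of the members rose against 7.42% of all genes, and 2.63% fell against 6.88%. The median log2 fold change of the members was 0.07, beside 0.00 over all genes, and 27 of 38 (71.1%) were above 0, beside 50.1% of all genes. In FPKM, all DKO libraries lay above all LKO libraries for 10 members (26.3%, against 13.6% of all genes) and below them for 1, against 16.0% of all genes. Because the members were chosen with earlier results of these data known, these comparisons with all genes are descriptive only. The changes were small: the largest rise was 1.22-fold, in Ulk1, and the fall, in Optn, was 24.1%. At an adjusted p of 0.01, 3 of the 6 remained (Sqstm1, Optn and Ulk1), and limma on unfiltered FPKM values called 1 (Sqstm1).

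**Figure D2:**
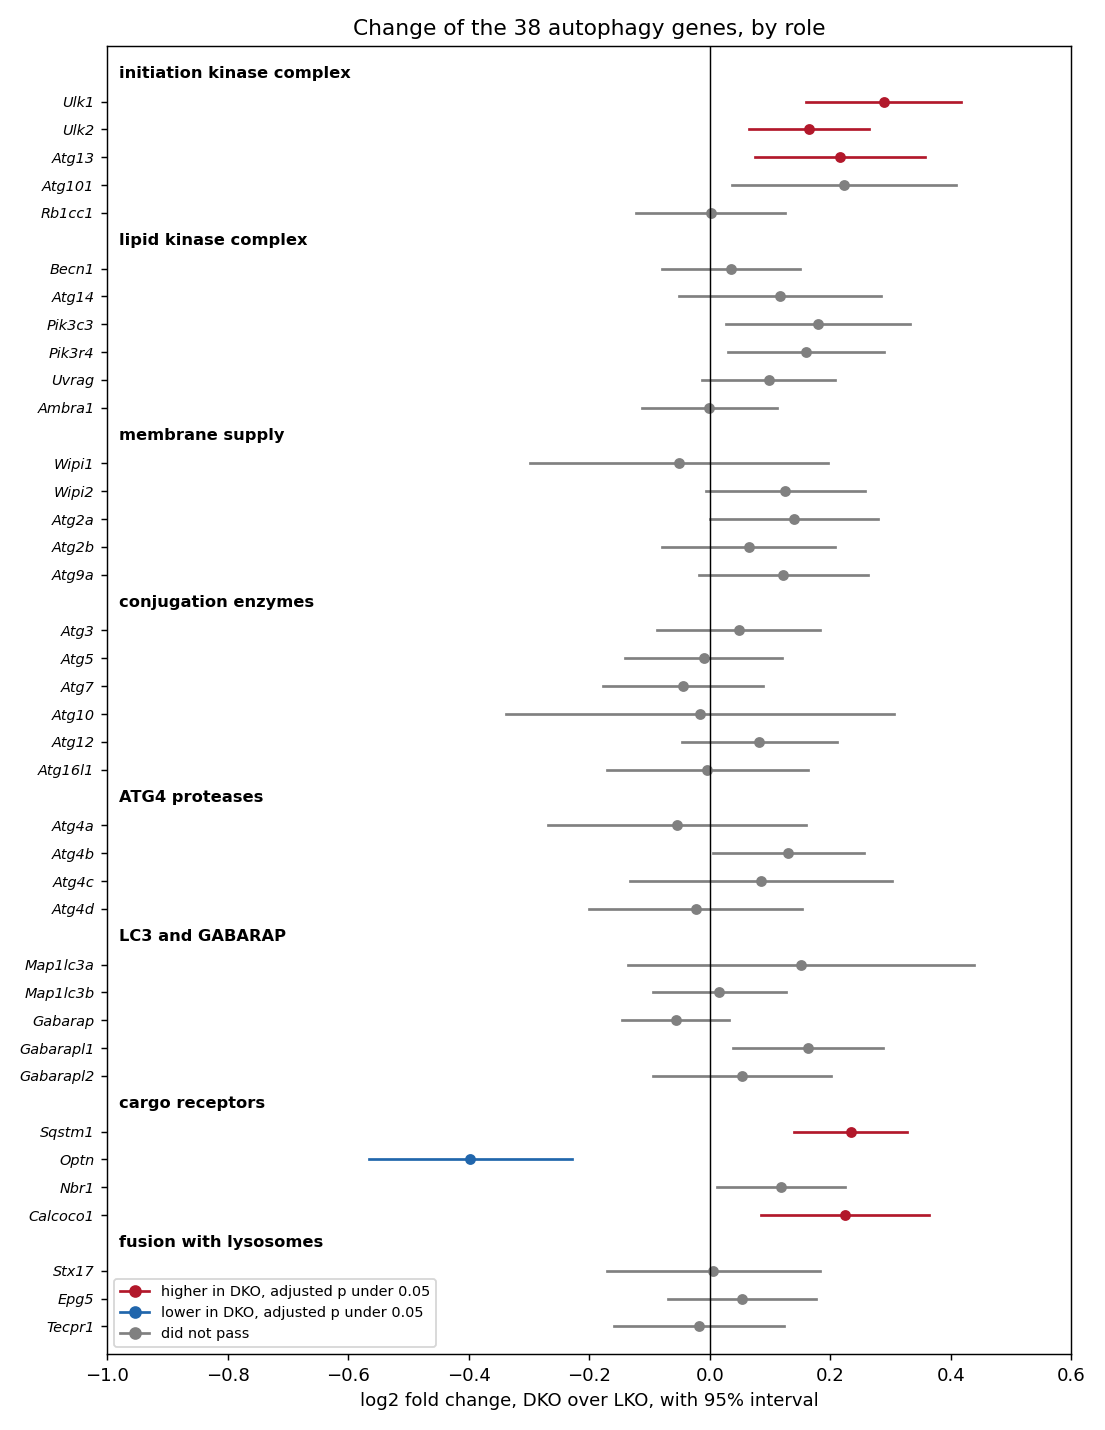
Log2 fold change of each autophagy gene, DKO over LKO, from edgeR on expected counts, with its 95% interval and grouped by role. Red marks the 5 genes higher in DKO, blue marks Optn, and grey marks the 32 that did not pass; Optn is the only one whose whole interval lies below 0.

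The initiation kinase complex had the most members that rose: 3 of 5, with none lower, beside 7.42% of all genes tested that rose. Ulk1, the kinase that phosphorylates the lipid kinase complex, stood at 19.2, 20.2 and 20.5 FPKM in DKO and at 14.8, 16.5 and 18.1 FPKM in LKO. All DKO libraries lay above all LKO libraries, and the LKO libraries were spread more widely. This gave a difference of 0.29 ± 0.06 SE on the log2 scale, with an edgeR adjusted p of 0.0024. Ulk2, its paralogue, was the more abundant of the pair at 33.2, 34.3 and 35.1 FPKM in DKO and 32.1, 30.6 and 29.5 FPKM in LKO. Its groups did not overlap either, although the gap between them was about 1 FPKM (a log2 fold change of 0.16 ± 0.05 SE, edgeR adjusted p = 0.0213). The ratio of Ulk1 to Ulk2 FPKM was 0.584 ± 0.00414 in DKO and 0.538 ± 0.0752 in LKO (SD, n = 3 each), and its ranges overlapped. Atg13, the scaffold that mTORC1 also phosphorylates, stood at 14.2, 13.9 and 12.6 FPKM in DKO and at 12.5, 11.9 and 10.95 FPKM in LKO, with a narrow gap between the groups. Its log2 fold change was 0.22 ± 0.07 SE (edgeR adjusted p = 0.0355). Atg101, which stabilises ATG13, did not pass in edgeR at 15.3 ± 0.569 FPKM in DKO and 13.2 ± 0.370 in LKO (0.22 ± 0.09 SE on the log2 scale, adjusted p = 0.108), though its groups did not overlap; limma on log2(FPKM + 1) called it (adjusted p = 0.0421) but called neither Ulk2 (0.0831) nor Atg13 (0.114). Rb1cc1, which encodes the large scaffold FIP200, was at 6.74 ± 0.225 FPKM in DKO and 6.78 ± 0.0971 in LKO.

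The Ulk1 call held without any single library (edgeR adjusted p between 0.000688 and 0.0154) and was lost in limma on unfiltered FPKM values (0.104). Those of Ulk2 and Atg13 were less stable, holding in 6 and 4 of the 14 alternatives. Ulk2 lost it without DKO replicate 2 (edgeR adjusted p = 0.0667), DKO replicate 3 (0.119), LKO replicate 2 (0.0760) or LKO replicate 3 (0.107), and in the 4 limma fits (0.0813 to 0.107). Atg13 lost it without DKO replicate 1 (edgeR adjusted p = 0.156), DKO replicate 2 (0.114), LKO replicate 2 (0.0770) or LKO replicate 3 (0.165), in DESeq2 (0.153), in edgeR without a count filter (0.0537) and in the 4 limma fits (0.113 to 0.185). Ulk1 lies on chromosome 5, as does the targeted Aldh2. Between the pair in RefSeq gene order stand 95 tested genes, of which 28 (29.5%) passed, against 15.3% of the 750 tested genes of that chromosome other than Aldh2. The share was counted after the Ulk1 value was seen. For Ulk1, linked sequence around the knockout allele and the missing enzyme itself cannot be told apart.

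Among the cargo receptors, Sqstm1 and Calcoco1 rose, Optn fell and Nbr1 did not pass. Sqstm1, which encodes p62, the receptor that gathers ubiquitinated proteins and also binds KEAP1, stood at 198, 194 and 188 FPKM in DKO and at 160, 174 and 164 FPKM in LKO. Every DKO library lay above every LKO library (log2 fold change 0.23 ± 0.05 SE, edgeR adjusted p = 0.000849). This call held in all 14 alternatives tried, with adjusted p up to 0.0358. Optn, which encodes optineurin, a receptor for damaged mitochondria and bacteria, stood at 10.3, 9.79 and 10.5 FPKM in DKO and at 14.98, 13.5 and 12.1 FPKM in LKO. The DKO libraries lay close together below the more scattered LKO libraries, with a log2 fold change of -0.40 ± 0.08 SE (edgeR adjusted p = 0.0015). The Optn call held without any single library and missed the threshold in limma on unfiltered FPKM values (adjusted p = 0.0504).

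Calcoco1, a receptor for endoplasmic reticulum and Golgi fragments, stood at 15.9, 15.2 and 16.8 FPKM in DKO and at 12.9, 14.1 and 14.3 FPKM in LKO, without overlap (log2 fold change 0.23 ± 0.07 SE, edgeR adjusted p = 0.0258). The call was lost without DKO replicate 1 (edgeR adjusted p = 0.0661), DKO replicate 3 (0.152) or LKO replicate 1 (0.103), in DESeq2 (0.133) and in the 4 limma fits (0.0711 to 0.122). Nbr1, a p62-like receptor for aggregates and peroxisomes, was at 28.3 ± 1.08 FPKM in DKO and 26.3 ± 1.19 in LKO (log2 fold change 0.12 ± 0.05 SE, edgeR adjusted p = 0.143). Sqstm1 made up 78.0% ± 0.737 of the summed FPKM of the 4 receptors in DKO and 75.6% ± 1.23 in LKO, and Optn 4.11% ± 0.191 in DKO and 6.16% ± 0.703 in LKO (SD, n = 3 each). Exons of Sqstm1 overlap those of Mrnip on the opposite strand in GENCODE M21. The strand setting is not known. Mrnip stood at 1.45 FPKM in DKO and 1.55 FPKM in LKO, and its part in the Sqstm1 values was not tested. The 4930551O13Rik transcript opposite Optn had no entry under that name among the genes of the series, so its part in the Optn values was not tested.

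**Figure D3:**
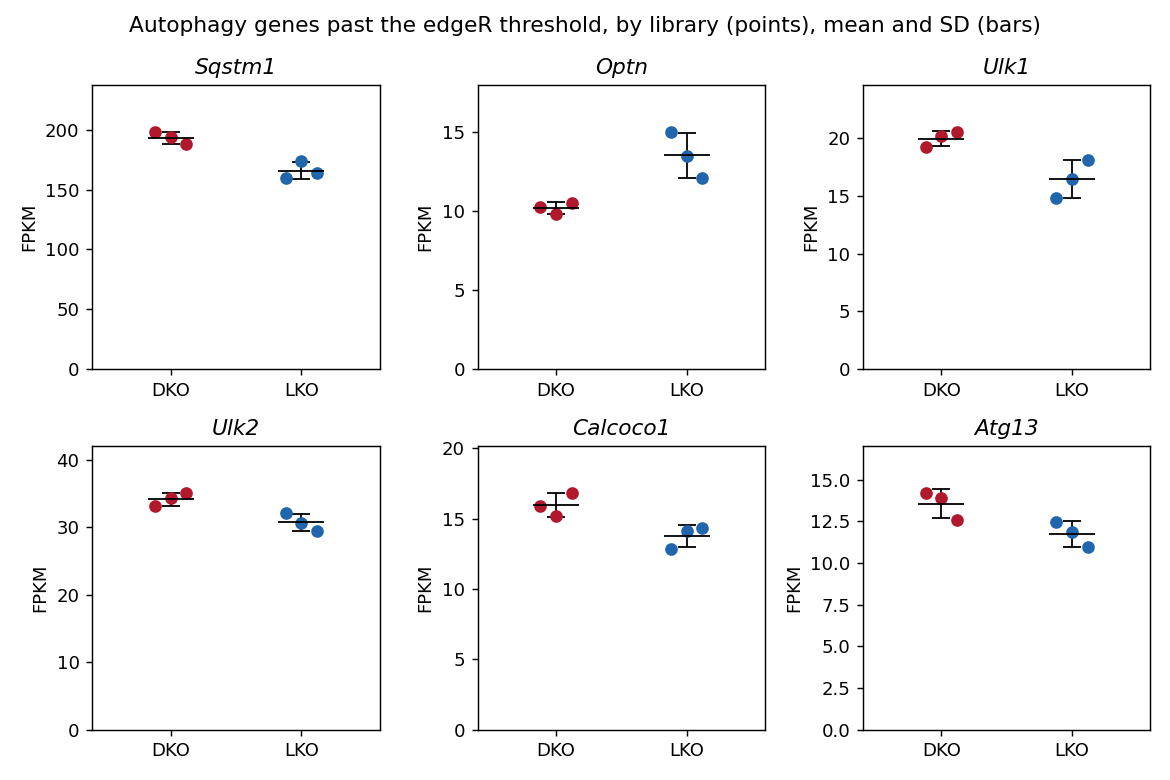
FPKM of the 6 autophagy genes past the threshold, with 1 point per library, the group mean and the SD (n = 3 each), DKO left and LKO right, on axes that start at 0. Optn is lower in DKO and the other 5 are higher, and in each panel the points of the groups do not overlap.

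None of the 6 lipid kinase genes passed, beside 14.3% of all genes tested. In this and each later role group, the genes are so few that 0 called lies close to that share. Becn1, which encodes Beclin 1 and was the most abundant of them, stood at 42.6, 38.8 and 41.6 FPKM in DKO and at 41.3, 39.7 and 39.98 FPKM in LKO, with overlapping groups (log2 fold change 0.03, 95% interval -0.08 to 0.15). Pik3r4, the VPS15 regulatory subunit, had the smallest p of the 6, at 10.04, 10.6 and 10.8 FPKM in DKO and 9.87, 8.94 and 9.59 FPKM in LKO. Those ranges were separate by a small margin (log2 fold change 0.16 ± 0.06 SE, edgeR adjusted p = 0.0978). Pik3c3, the catalytic subunit VPS34, was at 13.3 ± 1.05 FPKM in DKO and 11.8 ± 0.869 in LKO (edgeR adjusted p = 0.117), and passed without LKO replicate 1 (0.0401). Atg14, which directs the kinase to autophagy, was at 7.15 ± 0.590 FPKM in DKO and 6.64 ± 0.156 in LKO. Uvrag, its counterpart in the endosomal form of the complex, was at 24.2 ± 0.344 FPKM in DKO and 22.8 ± 0.725 in LKO, without overlap (edgeR adjusted p = 0.261). Ambra1, a Beclin 1 partner, was at 17.2 ± 0.493 FPKM in DKO and 17.4 ± 0.698 in LKO (95% interval of the log2 fold change -0.11 to 0.11).

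The membrane supply genes did not pass either (0 of 5). Atg9a, the scramblase of the seed vesicles, was the highest of the group at 14.8, 13.5 and 14.2 FPKM in DKO and 12.2, 14.3 and 12.9 FPKM in LKO. Atg2a, which moves lipid into the membrane, had the smallest p of the group at 10.2, 11.2 and 11.3 FPKM in DKO and 8.94, 10.4 and 10.6 FPKM in LKO (edgeR adjusted p = 0.192). Both had overlapping groups. Wipi2, the phosphoinositide reader that recruits ATG16L1, was at 9.78 ± 0.324 FPKM in DKO and 9.03 ± 0.0764 in LKO, without overlap (edgeR adjusted p = 0.221). Wipi1 was at 5.58 ± 0.248 FPKM in DKO and 5.82 ± 0.364 in LKO. Like Ulk1, Wipi2 lies on chromosome 5, as does Tecpr1 of the fusion genes.

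The conjugation enzymes had log2 fold changes between -0.04 and 0.08 and none of 6 past the threshold. Atg3, the E2-like enzyme that loads LC3 onto lipid, stood at 27.7, 28.6 and 28.1 FPKM in DKO and at 30.2, 25.3 and 26.8 FPKM in LKO. Atg12, the ubiquitin-like protein joined to ATG5, stood at 24.95, 24.1 and 24.99 FPKM in DKO and at 25.5, 22.5 and 22.5 FPKM in LKO. In both, the LKO libraries enclosed the DKO libraries. Atg5 was at 21.0 ± 0.912 FPKM in DKO and 21.3 ± 1.07 in LKO, and Atg7, the E1-like enzyme at the head of both conjugation chains, at 12.05 ± 0.387 FPKM in DKO and 12.5 ± 0.801 FPKM in LKO. Atg16l1, which places the ATG5 conjugate on the membrane, was at 10.3 ± 1.196 FPKM in DKO and 10.4 ± 0.517 in LKO. Atg10, the E2-like enzyme for ATG12, was at 4.21 ± 0.558 FPKM in DKO and 4.29 ± 0.652 in LKO. The ATG4 proteases, which trim LC3 before conjugation and release it afterwards, had no member that passed. Atg4b, the most abundant, stood at 21.5, 19.7 and 19.1 FPKM in DKO and at 18.6, 18.4 and 18.5 FPKM in LKO, without overlap (log2 fold change 0.13 ± 0.06 SE, edgeR adjusted p = 0.175). Atg4a was at 8.69 ± 1.23 FPKM in DKO and 9.08 ± 0.936 in LKO, Atg4c at 9.39 ± 0.962 in DKO and 8.84 ± 1.63 in LKO, and Atg4d at 6.67 ± 0.572 in DKO and 6.84 ± 0.0611 in LKO.

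None of the 5 LC3 and GABARAP genes passed. Gabarap made up 68.8% ± 0.707 of their summed FPKM in DKO and 70.5% ± 1.67 in LKO, and Map1lc3b 14.2% ± 0.184 in DKO and 13.9% ± 0.838 in LKO (SD, n = 3 each). The summed level was 603 ± 19.8 FPKM in DKO and 616 ± 5.52 in LKO. Gabarapl1 had the smallest p of the group, at 43.2, 39.2 and 42.4 FPKM in DKO and 37.0, 39.3 and 36.0 FPKM in LKO, where the lowest DKO library lay just under the highest LKO library. Its log2 fold change was 0.16 ± 0.06 SE (edgeR adjusted p = 0.0768), and it passed without DKO replicate 2 (0.0478). Gabarapl2 was at 52.3 ± 2.67 FPKM in DKO and 50.7 ± 5.15 in LKO. Map1lc3a, which encodes LC3A, was at 8.51 ± 0.917 FPKM in DKO and 7.72 ± 0.893 in LKO.

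Genes of fusion with the lysosome did not pass, 0 of 3. Tecpr1, a tether that binds the ATG5 conjugate, stood at 10.1, 9.79 and 8.75 FPKM in DKO and at 9.49, 9.51 and 10.2 FPKM in LKO. Epg5, a tether between autophagosome and late endosome, stood at 8.07, 8.42 and 8.27 FPKM in DKO and at 7.38, 8.10 and 8.56 FPKM in LKO. In each, the ranges overlapped. Stx17, the SNARE on the closed autophagosome, was at 6.19 ± 0.779 FPKM in DKO and 6.22 ± 0.597 in LKO.

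For the 32 members that did not pass, 95% intervals bound the change, given a spread between libraries that may be technical. Their 95% intervals, which are not adjusted for the number of genes, stayed within 1.5-fold in either direction for 32 of 32. On the log2 scale the lowest bound was -0.34, for Atg10, and the highest 0.44, for Map1lc3a. For 7 of the 32 (Atg101, Pik3c3, Pik3r4, Atg2a, Atg4b, Gabarapl1 and Nbr1) the interval lay wholly above 0, and at an unadjusted p under 0.05 the members counted 13 of 38, against 25.9% of all genes. Expected counts of 5 members (Atg14, Atg10, Atg4c, Stx17 and Epg5) were fractional in at least 1 library, so their reads may be shared with other genes and their values are less certain.

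The deposited transcript length of a gene can differ between libraries where several transcripts are listed. It was constant for 30 members and varied for 8, by between 0.172% (Atg5) and 2.47% (Atg4c) of the shortest value. Sqstm1, with 2 listed transcripts, had lengths between 2019.6 and 2022.3 bases in DKO and between 2016.3 and 2020.9 bases in LKO, an overlap. Atg16l1 was the only member whose lengths did not overlap, between 3075 and 3080.3 bases in DKO and between 3080.8 and 3086.5 bases in LKO.

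Outside the 38, 78 companion genes of the pathway were listed, of which 77 were tested: 5 rose and 2 fell in DKO. That is 9.09%, against 14.3% of all genes, with a median log2 fold change of -0.01. None of 19 tested genes of mTORC1 and its regulators passed. Mtor stood at 7.44 FPKM in DKO and 7.62 FPKM in LKO, and Tsc2, a brake on mTORC1, at 14.6 FPKM in DKO and 14.1 FPKM in LKO. Of 20 further receptors and mitophagy genes, Pink1 and Ccpg1 rose. Pink1, the kinase that marks damaged mitochondria for autophagy, stood at 36.8, 33.4 and 35.3 FPKM in DKO and at 26.9, 24.7 and 27.98 FPKM in LKO. These groups were far apart (log2 fold change 0.42 ± 0.06 SE, edgeR adjusted p = 3.67e-05), and the call held in all 14 alternatives. Ccpg1, a receptor for endoplasmic reticulum, stood at 27.4, 25.9 and 27.9 FPKM in DKO and at 24.1, 24.6 and 23.8 FPKM in LKO (edgeR adjusted p = 0.032). The Ccpg1 call was lost without DKO replicate 1 (edgeR adjusted p = 0.1002), DKO replicate 3 (0.153), LKO replicate 2 (0.0720) or LKO replicate 3 (0.0912), in DESeq2 (0.118), with a replicate block (0.0586) and in the 4 limma fits (0.0645 to 0.0780). In GENCODE M21, exons of Pink1 overlap those of Gm27646 and Mir7019 on the same strand. Exons of Ccpg1 overlap those of Gm44503 on the same strand and of Pigb on the opposite strand. Pigb stood at 4.23 FPKM in DKO and 4.57 FPKM in LKO, and the others had no entry under those names. The part of these overlaps in the values was not tested. Tbk1, the kinase that activates optineurin and p62, was at 35.1 FPKM in DKO and 33.7 FPKM in LKO (edgeR adjusted p = 0.429).

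Among 14 partners of the lipid kinase and the early membrane, Rubcn rose and Bcl2 fell (14.3% called, beside 14.3% of all genes tested). Rubcn, which encodes Rubicon, an inhibitor of the lipid kinase in autophagy that is needed for LC3-associated phagocytosis, stood at 30.5, 33.6 and 32.4 FPKM in DKO and at 28.8, 29.1 and 29.0 FPKM in LKO. The groups were separate (log2 fold change 0.16 ± 0.05 SE, edgeR adjusted p = 0.0257), but the call was lost without DKO replicate 2 (0.147), DKO replicate 3 (0.0969), LKO replicate 2 (0.0728) or LKO replicate 3 (0.0648), and in the 4 limma fits (0.0900 to 0.110). Bcl2, a Beclin 1 inhibitor, was low at 0.30, 0.32 and 0.21 FPKM in DKO and 0.64, 0.65 and 0.38 FPKM in LKO (a log2 fold change of -1.12 ± 0.28 SE, edgeR adjusted p = 0.00771). The call was lost without DKO replicate 3 (edgeR adjusted p = 0.0547) and in limma on unfiltered FPKM values (0.123). Limma with a filter left Bcl2 out, so only 11 alternatives covered it. Its expected counts lay between 10.02 and 51.23. Exons of Bcl2 overlap those of D630008O14Rik on the opposite strand in GENCODE M21, which was not tested. The deposited length of Bcl2 was 4265.6 bases in DKO replicate 3, 7209 in DKO replicates 1 and 2, and between 6692.1 and 7209 in LKO. The lymphocyte markers, which were lower in DKO as well, are given above, and their part in the Bcl2 result was not tested.

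Of 16 tethers and SNAREs, Vps33a fell (6.25%, against 6.88% of all genes tested). It encodes a subunit of the HOPS tether that drives fusion with lysosomes, and stood at 32.2, 32.8 and 31.6 FPKM in DKO and at 42.4, 39.8 and 39.2 FPKM in LKO. The groups were well separated (log2 fold change -0.32 ± 0.05 SE, edgeR adjusted p = 6.61e-05), and the call held in all 14 alternatives. Vps33a lies on chromosome 5 with 33 tested genes between it and Aldh2, of which 6 (18.2%) passed. The same limit holds for it as for Ulk1. Of 8 transcription regulators, Mitf and Keap1 rose (25.0% of a short list, against 7.42% of all genes tested). Mitf, a factor of the lysosomal and autophagy programme, stood at 13.8, 14.8 and 14.3 FPKM in DKO and at 11.4, 10.4 and 9.99 FPKM in LKO, without overlap (log2 fold change 0.44 ± 0.06 SE, edgeR adjusted p = 2.43e-05). Its relatives did not pass: Tfeb was at 16.9 FPKM in DKO and 16.3 FPKM in LKO, and Tfe3 at 77.5 FPKM in DKO and 74.8 FPKM in LKO. Keap1, which targets NRF2 for breakdown and is itself bound by p62, stood at 21.9, 23.8 and 23.7 FPKM in DKO and at 19.98, 19.2 and 20.6 FPKM in LKO (edgeR adjusted p = 0.0125). The Keap1 call was lost without DKO replicate 2 (edgeR adjusted p = 0.0626), DKO replicate 3 (0.0702) or LKO replicate 2 (0.0851), and in limma on unfiltered FPKM values (0.0652). Exons of Keap1 overlap those of Gm16754 on the opposite strand in GENCODE M21, which was not tested. Nfe2l2, which encodes NRF2, was at 79.0 FPKM in DKO and 83.7 FPKM in LKO (edgeR adjusted p = 0.334). Without DKO replicate 3, the companion genes called numbered 3 in place of 7.

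**Figure D4:**
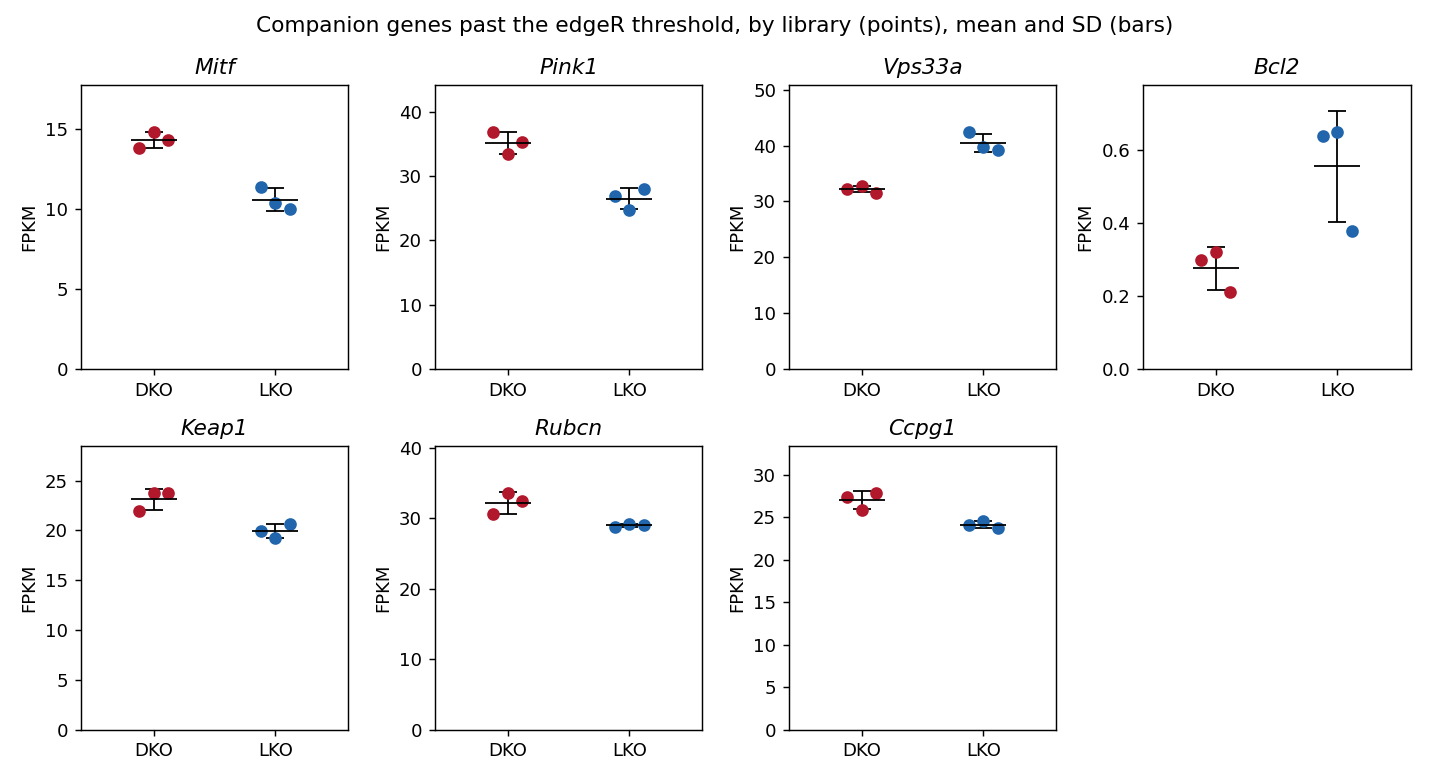
FPKM of the 7 companion genes past the threshold, with 1 point per library, the group mean and the SD (n = 3 each), DKO left and LKO right, on axes that start at 0. Bcl2 and Vps33a are lower in DKO, the other 5 are higher, and the points of the groups do not overlap in any panel.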

How the data were processed

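RNA sequencing covered 6 libraries of oxLDL-treated bone marrow-derived macrophages, grouped by their labels as DKO and LKO (3 each). Per the file headers, the authors deposited for each gene an expected count, not scaled to depth, an FPKM value scaled to transcript length and library size, and a transcript length. The submitters' processing notes name Bowtie 0.12.2 and build mm8. What counted the reads, and whether by strand, is not given in the sources used here. No listed gene has an FPKM under 0.01, and an unlisted gene was taken as 0. Symbols came from a RefSeq table of GRCm38 (16832 of 16871 gene numbers matched), used for names and gene order; promoter sequences are RefSeq's, of GRCm38.p6.

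Rounded expected counts entered the quasi-likelihood test of edgeR 4.0.16 under R 4.3.3 (filterByExpr, TMM, Benjamini-Hochberg adjustment over 11809 genes, threshold 0.05). Each standard error is the log2 fold change divided by the root of its F value, and means ± SD are of FPKM. On simulated data the test missed some of the smallest changes put in, which were larger than the rise of any autophagy member. Some companion genes and markers rose by more than that. The false calls of the test somewhat exceeded the nominal share. Alternatives were DESeq2 1.42.0, DESeq2 size factors, no count filter, a replicate block, limma 3.58.1 on log2(FPKM + 1) with an FPKM of at least 1 in 3 libraries, pseudocounts of 0.1 and 5, no filter, and each replicate left out. Fold changes from limma refer to log2(FPKM + pseudocount), where low genes appear to change less. Replicates differed beyond sampling noise (chi-square per degree of freedom between 1.68 and 3.71), so none was taken as a repeat deposit of another. This does not show that they came from separate cultures or animals.

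The knockout common to both groups and 1 macrophage marker are not reported here. The members, companion genes, marker lists and motifs were chosen with earlier results of these data known. Values in every library are given for members that passed and for the highest member and the one of smallest p in each role group; companion genes are named where they passed, and others for their role. Promoters are shown for the 4 members of smallest p that passed. Mrnip, the genes between Ulk1 or Vps33a and Aldh2, and the ratio of Ulk1 to Ulk2 were chosen after values were seen.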

Additional observations from a re-analysis of the deposited data

How the results depend on the processing

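Under the 14 alternatives, no call among the 38 autophagy genes changed direction. Of 532 values recomputed, 499 kept their side of the threshold, 28 lost a call and 5 gained one. In 39 values of genes without a call the sign changed. The main count of 6 was 4 in DESeq2 and in the limma fits with a filter, where 3 calls were kept and Atg101 was added, and 5 without a count filter. It moved by more than 1.5 times at an adjusted p of 0.01 (3) and in limma without a filter (1), and lay between 4 and 6 with a replicate left out. For the companion genes the main count of 7 became 4 at an adjusted p of 0.01, 4 in limma with each pseudocount, 3 in limma without a filter, and between 3 and 8 with a replicate left out, the lowest without DKO replicate 3. The cause of these moves was not tested. With a replicate block, 6 members and 6 companion genes were called, Ccpg1 being the one lost (edgeR adjusted p = 0.0586). Replicate numbers did not pair the libraries: same-numbered deviations correlated at -0.0312, -0.0903 and -0.0358, and no library of DKO correlated best with its own number. Counting depth limits the least counted members most, such as Atg10, whose 95% interval ran from -0.34 to 0.31 on the log2 scale.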
